A study of Homo sapiens with 10 samples.

Results

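Glutathione is a small peptide of glutamate, cysteine and glycine that serves as the main soluble thiol of animal cells. Glutamate-cysteine ligase joins glutamate to cysteine in the rate-limiting step, glutathione synthetase adds glycine, glutathione reductase returns the oxidised form to the reduced one with NADPH, peroxidases and transferases spend it, and ChaC enzymes break it down inside the cell. The genes described here are GCLC, GCLM, GSS, GSR, CHAC1, CHAC2, GPX1, GPX4, GSTP1 and MGST1, chosen by their symbols in the deposited table. Of these 10 genes, 9 had a row among the 16734 genes of the table, and GPX1 was not analysed here.

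The cells were MIA PaCa-2, an established human line from a pancreatic ductal adenocarcinoma. In the treated group, 5 libraries came from cells kept for 24 h in 10 µM hydroxyprogesterone caproate (HPC), a synthetic progestin ester. The control group held 5 libraries from cells given the same volume of the solvent DMSO for 24 h, and no other genotype, agent or time was part of the design. Poly(A) RNA was sequenced, and the values are FPKM (fragments per kilobase, scaled to the library's size), so a level is a share of its library and amounts per cell were not measured. Fewer cells expressing a gene and less RNA per cell cannot be told apart in such samples. The labels speak of biological replicates without naming separate cultures, days or batches, and the p-values cover only the spread among these 10 libraries.

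Reads recovered from the FPKM steps summed to between 71603127 and 82219086 per DMSO library and between 65851927 and 74477678 per HPC library. Pairs of libraries of 1 group had a Pearson r between 0.989 and 0.994 across genes, and no library stood apart. The epithelial keratin genes KRT8, KRT18 and KRT19 were at 8.71 FPKM or more in every library, whereas the ductal epithelial markers KRT7, EPCAM and CDH1 were at 0.264 FPKM or less. Of markers of other cell types, PTPRC, PECAM1, COL1A1 and CPA1 were at 0.0665 FPKM or less, CD68 was at 2.37 to 3.34 FPKM in DMSO and 8.33 to 10.9 FPKM in HPC, and COL1A2 was at 24.4 to 26.7 FPKM in DMSO and below 1 FPKM in HPC. PRSS1 was not analysed here. The part of CD68 and COL1A2 in the results was not tested.

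With HPC, the 6 genes that make, reduce or break down glutathione were higher, and the 3 that use it were lower. GCLC, the catalytic subunit of glutamate-cysteine ligase, and CHAC1, a ChaC enzyme, rose most. GCLM, GSR, CHAC2 and GSS rose less, and GPX4, GSTP1 and MGST1 fell by small amounts. The small rise of GSS did not hold under 1 of the scalings, as given with that gene below. Of the 9 genes tested, 6 were higher and 3 lower (limma, Benjamini-Hochberg adjusted p under 0.05 over all 9150 tested genes). These counts have to be read against a treatment that moved most of the transcriptome: 87.7% of all tested genes were called, 42.9% higher and 44.8% lower. The median log2 fold change was 0.45 over the 9 genes and -0.014 over all tested genes. The HPC and DMSO values of all 9 genes did not overlap, as in 79.6% of the tested genes. At least 2-fold rises were called for GCLC and CHAC1, against 7.54% of the tested genes. CHAC1 averaged under 1 FPKM in DMSO and passed the filter on low values through its HPC level.

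**Figure D1:**
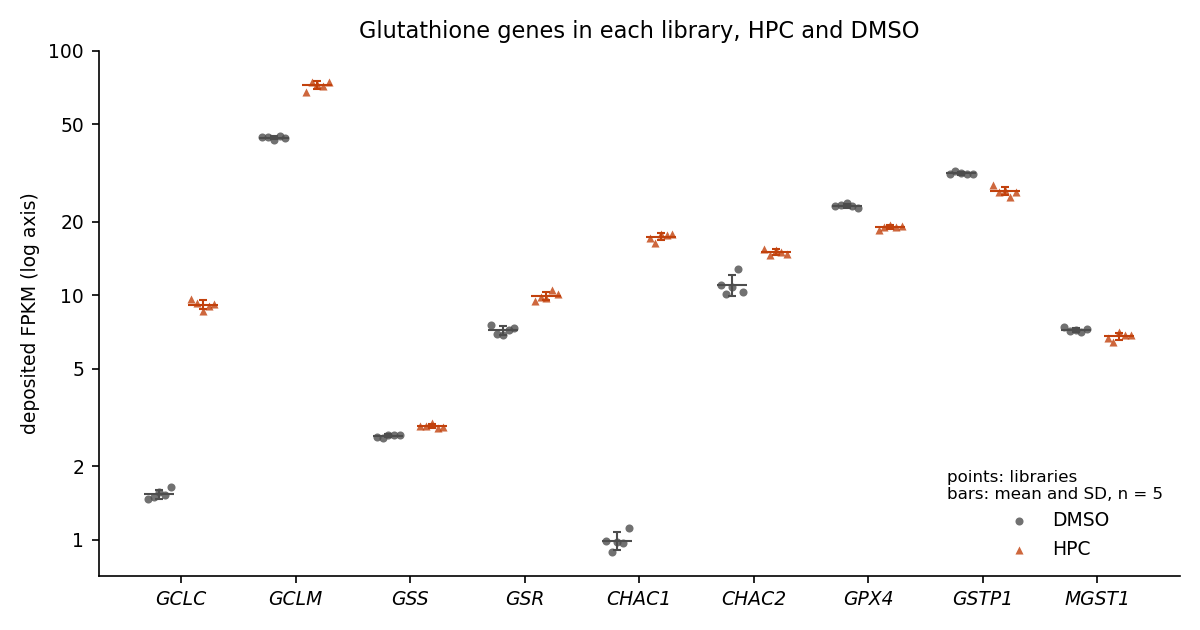
Deposited FPKM on a log axis for the 9 genes in each of the 10 libraries, with DMSO as circles, HPC as triangles and bars for the mean and SD of 5 libraries. CHAC1 moved from about 1 FPKM to above 16 and GCLC from below 2 to above 8, while the points of MGST1 nearly touch between the groups.

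The promoter sequences of 4 of these genes are shown because they carry the letters searched for, or, for GCLC, because the gene rose strongly and its window held neither motif. Each is the 250 bases before the RefSeq transcription start, 5′ to 3′ on the gene's strand, on GRCh38.p14, and 7 of the 9 genes had such a window. Motif matches are in capitals. One motif was the CHOP-ATF4 composite element, TGATGNAA, bound by transcription factors of the amino acid and endoplasmic reticulum stress response. The other was the core of the antioxidant response element, TGACNNNGC, bound by NRF2 with small MAF proteins. Both strands were searched, and the letters of the motifs do not overlap with each other in these windows.
CHAC1, chr15:40953221-40953470, plus strand: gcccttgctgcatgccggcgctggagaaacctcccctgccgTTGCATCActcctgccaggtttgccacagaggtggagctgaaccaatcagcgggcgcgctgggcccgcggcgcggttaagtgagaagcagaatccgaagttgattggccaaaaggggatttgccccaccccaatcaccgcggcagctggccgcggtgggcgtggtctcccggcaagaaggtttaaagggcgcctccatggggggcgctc
GCLC, chr6:53545102-53545351, minus strand: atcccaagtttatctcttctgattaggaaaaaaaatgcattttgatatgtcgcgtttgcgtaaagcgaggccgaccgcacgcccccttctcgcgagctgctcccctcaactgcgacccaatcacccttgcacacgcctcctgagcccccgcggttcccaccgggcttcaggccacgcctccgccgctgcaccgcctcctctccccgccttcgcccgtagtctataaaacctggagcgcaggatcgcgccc
GCLM, chr1:93909431-93909680, minus strand: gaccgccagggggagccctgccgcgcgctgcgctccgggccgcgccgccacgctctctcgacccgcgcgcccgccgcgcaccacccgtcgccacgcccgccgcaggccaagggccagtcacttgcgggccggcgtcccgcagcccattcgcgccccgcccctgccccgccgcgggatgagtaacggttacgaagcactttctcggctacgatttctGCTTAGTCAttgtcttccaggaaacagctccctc
GSTP1, chr11:67583562-67583811, plus strand: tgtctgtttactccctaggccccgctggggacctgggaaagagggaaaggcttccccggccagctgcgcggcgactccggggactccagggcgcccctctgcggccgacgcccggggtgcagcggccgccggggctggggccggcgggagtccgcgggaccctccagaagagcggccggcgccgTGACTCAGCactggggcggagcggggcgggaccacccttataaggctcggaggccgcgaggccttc
CHAC1 held the composite element 209 bases before its start, read on the opposite strand. Of 34943 RefSeq windows of this length, 3.15% held a match to it. GCLM held the antioxidant core 34 bases before its start on the opposite strand, and GSTP1 held it 66 bases before its start, against 10.9% of all windows. No match to either motif was found in the windows of GCLC, CHAC2, GPX4 and MGST1. Matching letters moved in both directions: CHAC1 and GCLM were higher with HPC, and GSTP1 was lower. A match describes the sequence and is not a binding site.

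GCLC (chromosome 6, 53497341 to 53616970, GRCh38, coordinates of GENCODE 29 here and below) encodes the catalytic subunit of glutamate-cysteine ligase. It measured 1.47, 1.49, 1.56, 1.52 and 1.64 FPKM in the DMSO libraries and 9.61, 9.27, 8.62, 9.06 and 9.21 FPKM in the HPC libraries. Every HPC library was far above every DMSO library, on 3050 to 3590 reads in DMSO and 16696 to 18545 in HPC. The log2 fold change was 2.50 ± 0.0377 SE (95% interval 2.42 to 2.58, limma adjusted p = 5.65e-15), and 108 of the 9150 tested genes rose more. GCLC shares 529 of its 8646 annotated exon bases with exons of a long noncoding gene on its strand and 7 with those of an antisense gene. These 2 genes were not analysed here. The exons of the other 8 genes overlap no exon of another annotated gene.

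GCLM (chromosome 1, 93885205 to 93909456) encodes the modifier subunit, which raises the catalytic efficiency of the ligase and relieves its feedback inhibition by glutathione. Its values were 44.2, 44.4, 43.1, 44.6 and 44.1 FPKM in DMSO and 68, 74.2, 73.4, 71.5 and 74.3 FPKM in HPC. The groups were well apart, with HPC replicate 1 the lowest of its group. GCLM rose by 0.71 on the log2 scale (SE 0.0259, limma adjusted p = 1.5e-11), which is 1.64-fold.

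GSS (chromosome 20, 34928433 to 34956027), glutathione synthetase, adds glycine to complete the peptide. It read 2.63, 2.61, 2.69, 2.67 and 2.69 FPKM in DMSO and 2.92, 2.92, 3.01, 2.87 and 2.88 FPKM in HPC. All HPC values were above all DMSO values, but the log2 difference was only 0.13 ± 0.0293 SE (limma adjusted p = 0.000935), and it turned to -0.03 (adjusted p = 0.343) when libraries were scaled to the total over genes not encoded by mitochondria. Of all FPKM, the 13 genes on mitochondrial DNA took 22.6% ± 0.704 in DMSO and 14.8% ± 0.717 in HPC (SD, n = 5), and that scaling moved the median log2 fold change of all tested genes by -0.17. These shares and that total rest on the lengths behind the deposited values, described with the levels below, and are not shares of transcripts. The direction of GSS therefore depends on the scaling. The other 8 genes kept their direction and their call under it.

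The synthesis genes changed unequally, which ratios within a library show. In units per merged exon length (defined with the levels below), the ratio of GCLC to GCLM was 0.0642, 0.0647, 0.0697, 0.0658 and 0.0716 in the DMSO libraries and 0.272, 0.241, 0.226, 0.244 and 0.239 in the HPC libraries. GCLC transcripts thus stayed the scarcer of the pair in all 10 libraries, but less so with HPC. The test used the deposited values with 0.1 FPKM added to each gene, so its differences are somewhat smaller than those between the ratios printed here. On that scale the log2 ratio rose by 1.79, or 3.45-fold, and was higher in 5 of 5 HPC libraries than in any DMSO library (exact two-sided permutation test, p = 0.00794, adjusted p = 0.00794 over 4 ratios). This p is the smallest that the 252 splits of 10 libraries into 5 and 5 can give. The ratio of GCLC to GSS moved from 0.297 ± 0.00929 to 1.61 ± 0.0827 (SD, n = 5). On the tested scale, log2 of FPKM + 0.1, the difference was 2.37, with the same exact permutation p. GSS was above GCLC in every DMSO library and below it in every HPC library.

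**Figure D2:**
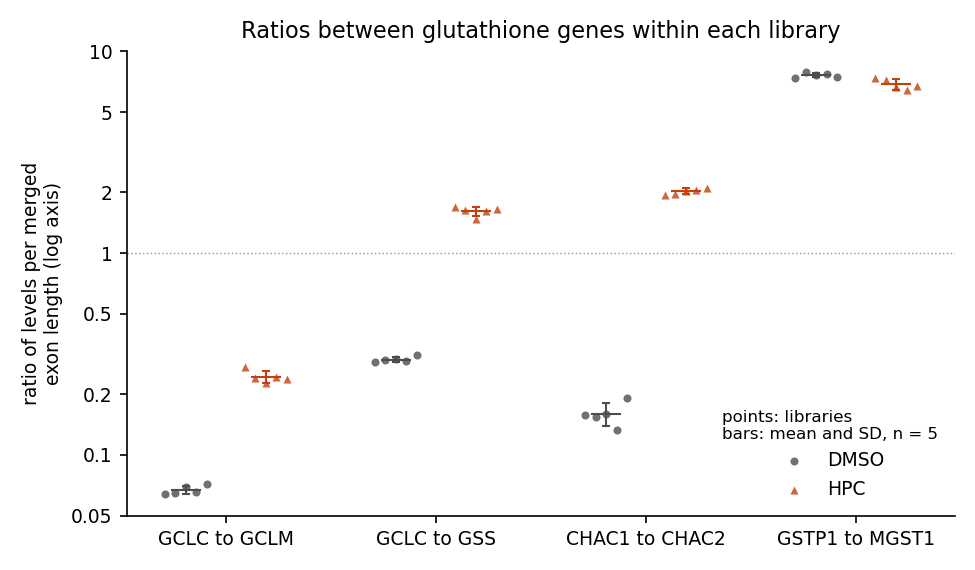
Ratios between pairs of the genes within each library, from levels per merged exon length, on a log axis, with DMSO as circles, HPC as triangles and bars for the mean and SD of 5 libraries. CHAC1 to CHAC2 and GCLC to GSS lie below the dotted line at 1 in all DMSO libraries and above it in all HPC libraries.

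GSR (chromosome 8, 30678061 to 30727999) encodes glutathione reductase. Its values were 7.56, 6.92, 6.89, 7.18 and 7.31 FPKM in DMSO and 9.44, 9.84, 9.73, 10.5 and 10.1 FPKM in HPC. The lowest HPC value lay above the highest DMSO value. GSR rose by 0.46 on the log2 scale (SE 0.0355, limma adjusted p = 3.07e-08), or by 0.30 with the non-mitochondrial total. Glutathione reductase draws on NADPH. Among the genes that supply it, the isocitrate dehydrogenases moved in opposite directions. IDH1, the cytosolic isocitrate dehydrogenase, rose from 18.4 ± 0.502 to 39.1 ± 1.15 FPKM, and IDH2, its mitochondrial counterpart, fell from 11.2 ± 0.31 to 5.84 ± 0.212 FPKM (SD, n = 5; limma adjusted p = 4e-13 and 6.37e-12).

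CHAC1 (chromosome 15, 40952962 to 40956519) encodes a gamma-glutamylcyclotransferase that cleaves glutathione in the cytosol and is a known target of the ATF4 and CHOP stress response. It measured 0.989, 0.889, 0.982, 0.971 and 1.12 FPKM in DMSO and 17.1, 16.4, 17.8, 17.6 and 17.8 FPKM in HPC. The DMSO values rest on 233 to 289 reads a library and the HPC values on 4005 to 4750. No HPC library came near a DMSO library. The log2 fold change was as large as 4.00 (SE 0.0488, limma adjusted p = 1.39e-15), and 19 of the 9150 tested genes rose more. With 1 FPKM added in place of 0.1 it was 3.20.

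CHAC2 (chromosome 2, 53767792 to 53775196) encodes a related enzyme with lower activity on glutathione. Its values were 11, 10.1, 10.8, 12.8 and 10.3 FPKM in DMSO and 15.5, 14.6, 15.3, 15 and 14.7 FPKM in HPC. DMSO replicate 4 was the highest control and still below all HPC libraries. CHAC2 rose by 0.45 on the log2 scale (SE 0.0541, limma adjusted p = 3.52e-06), and by 0.29 with the non-mitochondrial total. The ratio of CHAC1 to CHAC2 per merged exon length was 0.158, 0.155, 0.16, 0.133 and 0.191 in DMSO and 1.94, 1.97, 2.04, 2.06 and 2.11 in HPC. CHAC2 transcripts were the more abundant of the pair in every DMSO library, and CHAC1 transcripts in every HPC library. On the tested scale, log2 of FPKM + 0.1, the ratio rose by 3.55, or 11.7-fold (exact permutation test, adjusted p = 0.00794), and by 2.78 with 1 FPKM added.

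Other genes that break down glutathione or recycle its parts moved little. Of 11 such genes, 6 were tested, and their log2 fold changes ran from -0.54 to 0.23. GGT1, GGCT and CNDP2 were higher and OPLAH did not pass, all 4 named after their values were seen, and with the non-mitochondrial total none of the 6 was higher, 2 were lower and 4 did not pass. GGT7, of the gamma-glutamyltransferase family, fell from 1.95 ± 0.102 to 1.31 ± 0.119 FPKM, and LAP3, a cytosolic leucine aminopeptidase, from 5.83 ± 0.356 to 4.52 ± 0.281 FPKM (SD, n = 5; limma adjusted p = 1.28e-06 and 1.26e-05). Genes that supply cysteine moved far more: SLC3A2, CTH, SLC7A11 and CBS, the 4 tested, were all higher (42.9% of all tested genes were), by a median of 2.47 on the log2 scale and of 2.31 with the non-mitochondrial total. SLC3A2, the heavy chain shared by several amino acid transporters including the cystine importer, rose from 2.58 ± 0.114 to 48.4 ± 4.45 FPKM, and CTH, which releases cysteine from cystathionine, from 3.07 ± 0.204 to 15.1 ± 0.431 FPKM (limma adjusted p = 4e-15 and 3.1e-14). SLC7A11, the cystine-specific light chain, rose from 1.5 ± 0.169 to 10.1 ± 0.202 FPKM (limma adjusted p = 1.14e-13), and CBS, which makes cystathionine, by 0.64 on the log2 scale, both named after their values were seen.

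GPX4 (chromosome 19, 1103926 to 1106791) encodes a selenoprotein that reduces lipid peroxides in membranes with glutathione and protects cells from ferroptosis. It measured 23.1, 23.3, 23.8, 23.2 and 22.7 FPKM in DMSO and 18.4, 19, 19.4, 19 and 19.2 FPKM in HPC. The groups were cleanly apart, and GPX4 fell by 0.29 on the log2 scale (SE 0.0222, limma adjusted p = 3.12e-08), or by 0.46 with the non-mitochondrial total. Of the 6 other peroxidase genes listed, only GPX8 passed the filter, at 3.44 ± 0.173 FPKM in DMSO and 3.28 ± 0.299 FPKM in HPC (limma adjusted p = 0.269). With the non-mitochondrial total its log2 fold change was -0.23 (adjusted p = 0.00199).

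Selenoprotein mRNAs such as that of GPX4 are read with a dedicated machinery that inserts selenocysteine. Of 7 tested genes of this machinery, SEPHS2 and SECISBP2 were higher, EEFSEC, SEPSECS and TRNAU1AP were lower, and SEPHS1 and SCLY did not pass (log2 median -0.11). With the non-mitochondrial total 2 were higher and 5 lower. The lower genes and those that did not pass are named after their values were seen. SEPHS2, which makes the selenium donor selenophosphate, rose from 34.7 ± 1.21 to 213 ± 7.87 FPKM, by 2.61 on the log2 scale (SE 0.0307, limma adjusted p = 1.17e-15). SECISBP2, which binds the selenocysteine insertion element, rose from 1.78 ± 0.108 to 2.92 ± 0.146 FPKM (limma adjusted p = 1.19e-08).

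GSTP1 (chromosome 11, 67583595 to 67586656) encodes the pi-class transferase, which conjugates glutathione to electrophiles in the cytosol. Its values were 31.4, 32.2, 31.7, 31.3 and 31.2 FPKM in DMSO and 28.2, 26.5, 26.9, 25.3 and 26.5 FPKM in HPC. The highest HPC library, replicate 1, lay below every DMSO library. GSTP1 fell by 0.24 on the log2 scale (SE 0.0272, limma adjusted p = 1.8e-06), or by 0.41 with the non-mitochondrial total.

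MGST1 (chromosome 12, 16347142 to 16609259) encodes a microsomal transferase with peroxidase activity. It measured 7.4, 7.11, 7.22, 7.1 and 7.25 FPKM in DMSO and 6.67, 6.46, 7.08, 6.89 and 6.89 FPKM in HPC. The highest HPC library lay just under the lowest DMSO library. The log2 difference of -0.09 ± 0.0292 SE passed the threshold (limma adjusted p = 0.0145) and ranged from -0.25 to -0.07 over the alternatives. The ratio of GSTP1 to MGST1 per merged exon length moved from 7.63 ± 0.196 to 6.86 ± 0.398 (SD, n = 5), and the difference on the tested scale was -0.16 (exact permutation test, adjusted p = 0.00794). Its highest HPC value of 7.38 lay next to its lowest DMSO value of 7.39.

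Among the genes of the wider transferase lists, which include the synthase PTGES, the falls were larger. Of 25 genes in the cytosolic and membrane transferase lists, GSTP1 and MGST1 included, 18 had a row and 12 passed the filter. GSTM4 and MGST2 averaged under 1 FPKM in HPC and passed through their DMSO level. The other 10 averaged at least 1 FPKM in both groups, and all 10 were lower (44.8% of all tested genes were), with a median log2 fold change of -0.63, and 4 at least 2-fold lower (9.88% of all tested genes were). Over the 12 the median was -0.83 and the range -2.71 to -0.09. Tested with no filter, the 18 gave 14 lower and 2 higher calls, 2 did not pass, and the median was -0.52. The 12 were also lower under each of the 4 other scalings, with a median of -0.99 under the non-mitochondrial total. GSTP1 and MGST1 had the smallest changes of the 12.

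PTGES, a glutathione-dependent prostaglandin E synthase of the membrane family, fell from 9.8 ± 0.299 to 1.43 ± 0.245 FPKM (SD over 5 libraries; -2.71 ± 0.0908 SE on the log2 scale, limma adjusted p = 2.52e-11). MGST2, another microsomal transferase, fell from 1.48 ± 0.0351 to 0.418 ± 0.0821 FPKM (limma adjusted p = 7.17e-10). GSTM4 fell from 1.59 ± 0.148 to 0.333 ± 0.0239 FPKM and GSTM1 from 5.35 ± 0.109 to 2.45 ± 0.113 FPKM, both mu-class transferases (limma adjusted p = 8.77e-12 and 4.6e-12). The mu-class genes are close copies, and how the authors' counting split reads between such copies is unknown, so the level of each is uncertain, as for GSTT2B and GGT1.

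**Figure D3:**
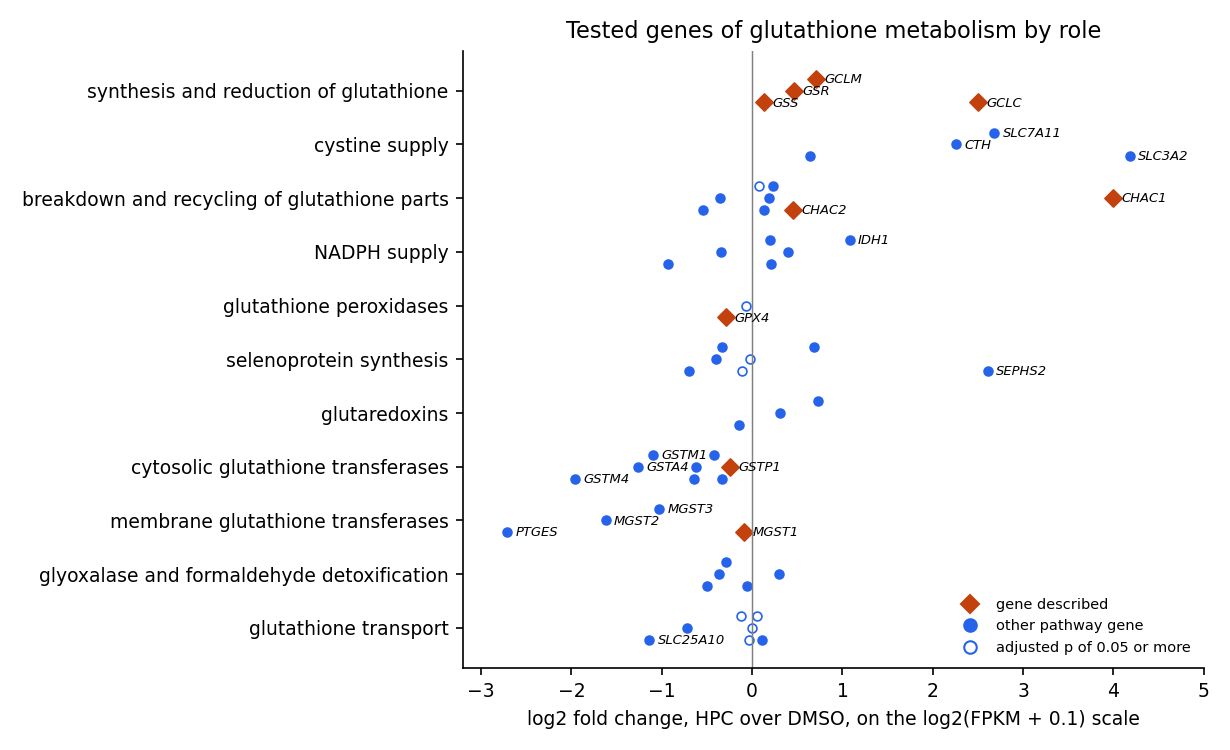
Log2 fold changes of HPC over DMSO on the log2(FPKM + 0.1) scale for the tested genes by role, with diamonds for the 9 genes described and circles for other pathway genes, open where the adjusted p was 0.05 or more. All 12 tested genes of the transferase lists lie left of 0, and the 4 genes listed under cystine supply lie right of it.

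The remaining roles were mixed. Of 3 tested glutaredoxins, GLRX2 and GLRX3 were higher and GLRX5, named after its values were seen, was lower. GLRX2 rose from 3.69 ± 0.197 to 6.17 ± 0.282 FPKM and GLRX3 from 16.5 ± 0.407 to 20.5 ± 0.317 FPKM (limma adjusted p = 1.74e-09 and 3.31e-08). Of 5 genes that detoxify methylglyoxal, formaldehyde or sulfide with glutathione, ESD, ETHE1, ADH5 and GLO1 were lower and HAGH higher, the last 3 named after their values were seen. ESD, S-formylglutathione hydrolase, fell from 16.7 ± 0.3 to 11.8 ± 0.529 FPKM, and ETHE1, a mitochondrial persulfide dioxygenase, from 3.04 ± 0.193 to 2.32 ± 0.0484 FPKM (limma adjusted p = 3.62e-09 and 2.65e-06). Of 7 tested genes tied to export or mitochondrial transport of glutathione, 1 was higher (ABCC5, named after its values were seen), 2 lower and 4 did not pass, and with the non-mitochondrial total none was higher and 6 were lower. SLC25A40, a mitochondrial glutathione importer, fell from 5.73 ± 0.251 to 3.44 ± 0.19 FPKM, and SLC25A10, the dicarboxylate carrier, from 3.41 ± 0.213 to 1.5 ± 0.165 FPKM (limma adjusted p = 2.17e-09 and 2.91e-09). SLC25A39, also a mitochondrial glutathione importer, did not pass in the main fit (9.87 ± 0.272 and 9.89 ± 0.251 FPKM, limma adjusted p = 0.917). It was more abundant than SLC25A40 per merged exon length in DMSO (51.5 against 9.75) and is named after its values were seen. Over all lists, 49 genes beside the 9 were tested, of which 17 were higher, 24 lower and 8 without a call (median -0.11 on the log2 scale). The called share was 83.7% of these genes and 87.7% of all tested genes. With the non-mitochondrial total 22.4% of them were higher and 63.3% lower (11 and 31 genes), against 31.9% and 55.3% of all tested genes.

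Levels can be set side by side between genes only per length, and the length behind the deposited values matters here. Dividing the recovered reads by the FPKM gives the length each value was scaled by. Over 15183 genes this length was 1.001 times the sum of the exon lengths of all annotated transcripts of the gene in GENCODE 29 (median), and within 2% of it for 82.57% of genes. Against the merged exon length, in which each exonic base counts once, the median was 2.314 times. Each further annotated transcript therefore adds its exons to the length and lowers the deposited value. For the 9 genes the factor ran from 0.991 for CHAC2, with 1 transcript, to 6.296 for GSS, with 28. For 7 of the 9 the implied length was within 2% of the summed one. The exceptions were GSS (38874 against 36943 bases) and, by far more, CHAC1 (3579 against 6891 bases). The merged lengths are those of GENCODE 29, whose release may differ from the one behind the table. The level of CHAC1 per merged exon length, and its ratio to CHAC2, are therefore less certain than the others. The other levels depend on the length too, because the merged length counts the exons of every annotated transcript, used or not. It was 7440 bases over 19 transcripts for MGST1 and 6174 over 28 for GSS. Which transcripts these cells used was not determined. The order of genes with similar levels, such as GSS and MGST1, and the size of ratios between genes therefore rest on this choice of length.

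Per merged exon length, GSTP1 (112 ± 1.44) and GPX4 (111 ± 1.82 FPKM, SD, n = 5) were the highest in DMSO and overlapped each other. GCLM followed at 74 ± 0.937, GSR at 25.5 ± 0.988, GSS at 16.7 ± 0.242, MGST1 at 14.6 ± 0.254, CHAC2 at 10.9 ± 1.08, GCLC at 4.97 ± 0.21 and CHAC1 at 1.72 ± 0.144, with no overlap between these neighbours. In HPC, GCLM led at 121 ± 4.43, ahead of GSTP1 (94.4 ± 3.64) and GPX4 (90.6 ± 1.69), which overlapped. GSR stood at 35.3 ± 1.47, and CHAC1 (30.1 ± 1.05) and GCLC (29.6 ± 1.17) came next and overlapped each other. GSS (18.4 ± 0.351), CHAC2 (14.9 ± 0.385) and MGST1 (13.8 ± 0.484) closed the order. The 2 scarcest transcripts of the DMSO cells, CHAC1 and GCLC, were thus in the middle of the order in HPC. As deposited, GSS read below CHAC2 and MGST1 in DMSO, and per merged length above both.

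**Figure D4:**
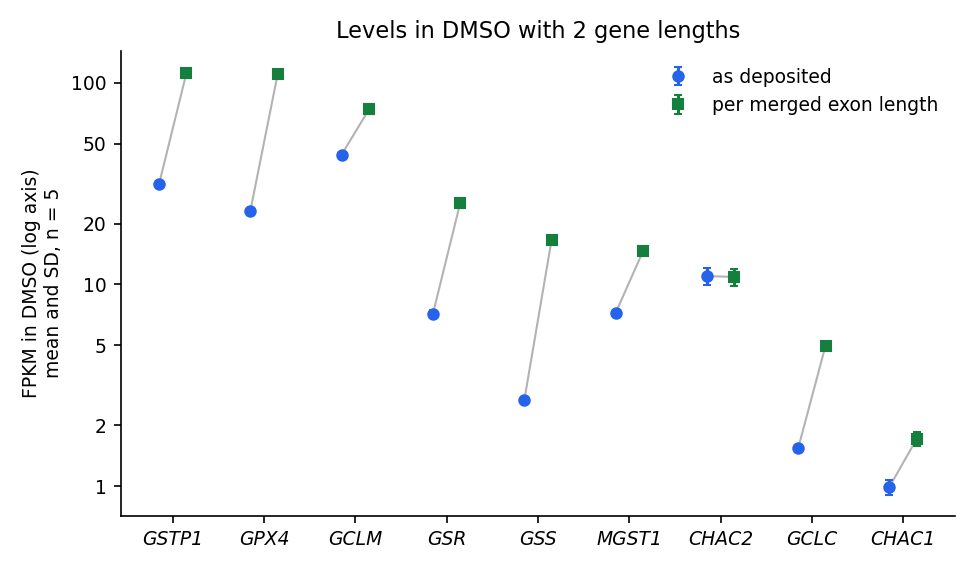
Mean level in DMSO (error bars, SD of 5 libraries) on a log axis, as deposited (circles) and per merged exon length (squares), with genes ordered by the latter. GSS moves from 2.66 to 16.7 and GPX4 from 23.2 to 111, while CHAC2 stays in place.

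Genes were also ranked by how closely their log2 values followed those of the gene that rose most and of the gene that fell most over the 10 libraries, which all share the contrast of treatment, so high values are common. With CHAC1, 2408 tested genes had a Pearson r above 0.95, and the closest were TLCD2 (0.9996), SOCS7 (0.9995) and SPIRE1 (0.9992). With GPX4, 2516 genes passed 0.95, and the closest were MTR (0.9966), NUP85 (0.9965) and NIBAN2 (0.9964). These correlations describe 10 libraries in 2 groups.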

How the data were processed

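The authors deposited FPKM for 16734 genes in 10 libraries; edgeR, STAR 2.7.7a, fastp 0.23.2 and the build GRCh38.p13 are listed, without roles, per the submitters' processing notes. Which counter, annotation or gene filter they used is not given in the sources used here. Genes, lists and ratios were chosen with earlier results of these data known. Values were analysed as log2(FPKM + 0.1), which understates the fold changes of low genes. Of all genes, 9150 reached 1 FPKM in 5 or more libraries and entered the limma fit (version 3.58.1, R 4.3.3, trend and robust empirical Bayes, two-sided, Benjamini-Hochberg over all tested genes, threshold 0.05). Ratios were compared with an exact permutation test in SciPy 1.17.1. The ratio of GPX1 to GPX4 was planned and not computed.

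For all 15208 genes above 0 in at least 3 libraries, values were whole multiples of 1 read in each library, within 0.0001 of a read. Reads are not independent molecules, and depth covers counting error only. Named pathway genes were the 2 with the smallest p of each list. Of 77 listed pathway genes beside the 9, 20 were below the filter and 8 were not analysed here. The symbol GGT1 stands for 2 rows, and the more abundant was used. Promoter sequences are from RefSeq on GRCh38.p14, matched by symbol. Fits and read recovery were tested on simulated data. Alternatives changed the pseudocount, filter, scaling, variance model, weights, block and libraries, and, chosen after seeing the data, used voom on the recovered reads or values per merged exon length.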

Additional observations from a re-analysis of the deposited data

How the results depend on the processing

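Over 23 alternative fits, 205 of 206 fold changes of the 9 genes kept their direction and their side of the threshold; GSS was not tested at 5 FPKM. The exception was GSS with the non-mitochondrial total (-0.03), where 11 instead of 17 other pathway genes were higher. That scaling moved the median log2 fold change of all tested genes by -0.17, and 2929 instead of 3922 of them were higher. Why the mitochondrial share of FPKM was lower with HPC was not tested. The filter of at least 5 FPKM tested fewer genes and left 1969 higher and 1836 lower in all, and 15 lower pathway genes. Leaving out 1 library at a time tested 8655 to 8867 genes instead of 9150, because the filter still asked for 5 libraries. Genes that reached 1 FPKM only in the reduced group dropped out. These fits gave 3587 to 3879 higher and 3564 to 4087 lower genes. They gave 16 to 18 higher and 22 to 25 lower pathway genes, and 6 higher and 3 lower among the 9. Over the same omissions the ratios changed by 1.75 to 1.81 (GCLC to GCLM), 2.35 to 2.40 (GCLC to GSS), 3.49 to 3.61 (CHAC1 to CHAC2) and -0.18 to -0.13 (GSTP1 to MGST1) on the log2 scale. With 1 FPKM added in place of 0.1 these became 1.30, 1.90, 2.78 and -0.16, by construction of the scale. A voom fit to the recovered reads (100% of the genes checked gave whole reads) called 8020 genes, against 8021, and values per merged exon length 9270 of 10688. Same-numbered libraries correlated at -0.0593 to 0.199 in their deviations from the group means, and 2 of 5 matched best with their own number, so the numbers were not taken to pair the samples. A replicate block called 7969 instead of 8021 genes. With the replicate block the ratio differences were the same (1.79, 2.37, 3.55 and -0.16), with p = 0.0625, the smallest that an exact sign-flip test of 5 pairs can give. Depth was not limiting for the 9 genes, whose fewest reads were 233 in a library (CHAC1 in DMSO).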
